A study of Mus musculus with 10 samples.

Results

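The 10 genes described here are components and target genes of the Wnt/beta-catenin pathway, picked out by gene symbol. They were chosen with earlier results of these data known, so comparisons of them with all genes are descriptions. They comprise the TCF/LEF transcription factors Lef1, Tcf7, Tcf7l1 and Tcf7l2, the feedback genes Axin2, Nkd1, Rnf43 and Znrf3, the R-spondin receptor gene Lgr4 and the secreted antagonist gene Sfrp1. Of these 10 genes, 9 were among the 17658 named genes of the SB431542 table, where Nkd1 had no row, and all 10 were among the 16719 named genes of the T-5224 table. Genes with a mean of at least 1 RPKM (reads per kilobase of gene, scaled to library depth) over the libraries of a table were tested. This left 9 of the 10 genes for SB431542 and 8 for T-5224, since Axin2 and Nkd1 were below the minimum with T-5224.

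RNA-seq was performed on ASZ001, a mouse cell line of basal cell carcinoma (BCC), the skin cancer driven by Hedgehog signaling. All libraries came from this single line in low serum medium (0.2% chelated FBS, 0.05 mM CaCl2) for 24 h. In the SB431542 experiment the cells received the vehicle DMSO (n = 3 libraries) or 10 µM SB431542, an inhibitor of the TGFß receptor kinase ALK5 (n = 3). In the T-5224 experiment they received DMSO (n = 2) or 20 µM T-5224, an inhibitor of the transcription factor AP-1 (n = 2). The experiments had DMSO libraries of their own and were deposited as separate tables, so each inhibitor was compared with its own DMSO libraries and no test was made between the tables. The comparisons ask which Wnt pathway transcripts depended on TGFß receptor activity and which on AP-1 in these cells. The study's methods describe the libraries as biological replicates, without saying how the cultures were separated, so p-values refer to these libraries only. They combine the spread of a gene between libraries with a prior variance fitted over all genes tested. With n = 2 per group in the T-5224 experiment, that prior outweighs the spread of the gene itself. Very small p-values there therefore do not measure the spread between libraries alone.

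Wnt proteins bind Frizzled receptors and the co-receptors LRP5 and LRP6, which stops the destruction complex from degrading beta-catenin. Beta-catenin then enters the nucleus and binds TCF/LEF factors on DNA, which act as repressors without it and as activators with it. In skin this pathway is known for hair follicle formation, hair matrix differentiation and stem cell control, and it interacts with Hedgehog signaling in BCC. The TCF/LEF factors share a DNA-binding domain but differ in habit. TCF7L1 is mostly a repressor and is known from hair follicle stem cells, whereas LEF1 is known from the hair matrix.

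Depth, worked out from low values that lie on a ladder of whole reads, was between 31.65 and 51.2 M reads per library. The least covered of the tested genes was Tcf7 in the T-5224 experiment, at an estimated 84 to 212 reads per library. The first DMSO library of the SB431542 experiment stood apart from the other DMSO libraries of that table. Its gene values deviated from them with an SD of 0.272 on the log2 scale, against 0.161 and 0.19 for the others, and its level of Rn45s, a ribosomal RNA gene, was 770 RPKM against 2101 and 2155. It also had the highest Lef1, Tcf7l1 and Tcf7l2 values of the table, so the values without it are given beside these genes. In the T-5224 experiment the inhibitor libraries differed in Rn45s too, at 1862 and 5184 RPKM, against 3401 and 3473 RPKM in DMSO. With n = 2 per group there, the data cannot say which library stands apart. The label of the line fitted its keratinocyte markers, and all 6 basal keratinocyte and BCC markers exceeded 1 RPKM in DMSO. The lowest was the Hedgehog pathway gene Gli1, with means of 2.4 RPKM in the SB431542 and 5.02 RPKM in the T-5224 experiment. Of the lists for fibroblasts, endothelial, immune and pigment cells only Dcn, Pecam1 and Cd68 exceeded 1 RPKM. Their means were 2.13, 5.75 and 8.43 RPKM in the SB431542 experiment and 1.89, 11.3 and 17.6 RPKM in the T-5224 experiment. Lum, Ptprc, Cdh5, Kdr, Dct and Mlana, of the same lists, were at or near 0.

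Among the 10 genes, Lgr4 had by far the highest level per length in DMSO cells in either experiment. The receptor encoded by Lgr4 binds R-spondins, which raise the amount of Frizzled at the cell surface. It was at 60.3 ± 5.003 RPKM (SD, n = 3) in the SB431542 experiment and at 112.9 ± 1.45 RPKM (SD, n = 2) in the T-5224 experiment. Tcf7l1 and Sfrp1 followed, with ranges that overlapped in either experiment, at means of 18.5 and 17.5 RPKM in the first and 24.5 and 24.9 RPKM in the second. Tcf7l2 and Znrf3 came next, at 5.89 and 4.52 RPKM in the first experiment and 5.39 and 3.49 RPKM in the second. The other genes were between 1.54 and 3.66 RPKM in the first experiment and, apart from Nkd1, between 1.01 and 3.32 RPKM in the second, and the ranges of Lef1 and Rnf43 overlapped in either. Nkd1, which encodes a Dishevelled-binding inhibitor, was listed at 0 in 3 of the 4 libraries of the T-5224 experiment and at 0.012 RPKM in the other, a DMSO library, which is about 2 reads.

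**Figure D1:**
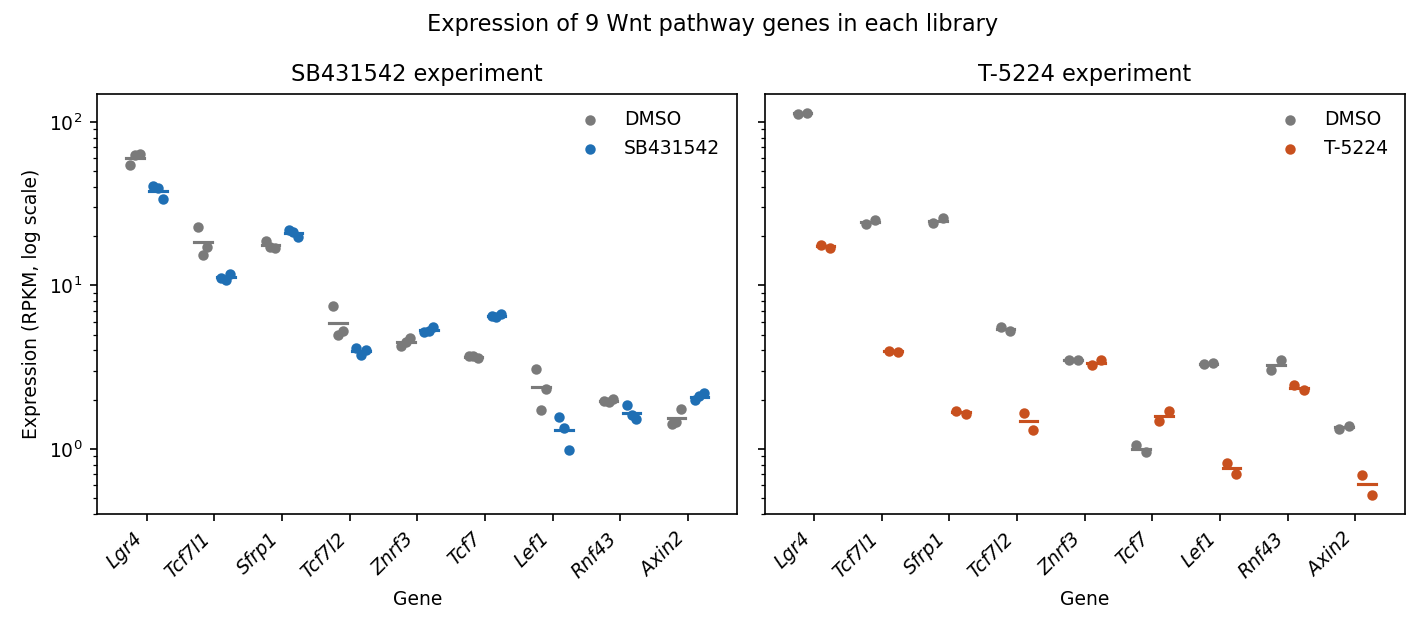
RPKM (log axis) of 9 Wnt pathway genes in each library of the SB431542 experiment (left) and the T-5224 experiment (right); points are libraries, bars are group means, and Nkd1 is not drawn. With T-5224 the points of Lgr4, Tcf7l1, Sfrp1, Tcf7l2, Lef1 and Axin2 lie well below those of DMSO, while those of Tcf7 lie above.

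The ALK5 inhibitor SB431542 lowered 3 of the 4 TCF/LEF factor genes and Lgr4, and raised Tcf7, Axin2 and Sfrp1, all by less than 2-fold. Of the 9 genes tested, 4 fell and 3 rose with an adjusted p below 0.05 (limma, Benjamini-Hochberg adjustment over all 10842 genes tested). Over all genes tested, 10.0% were lower and 10.2% were higher. By limma, 0 of the 9 genes changed more than 2-fold with an adjusted p below 0.05, or with an unadjusted p below 0.05, and over all genes 0.581% were down and 0.231% up by that measure. The SB431542 and DMSO libraries did not overlap in any of the 9 genes, compared with 45.1% of all genes tested. The median log2 fold change was −0.20 over these genes and 0.01 over all genes tested. With values centred on the median of each library, or quantile normalized, the split was 2 lower and 4 higher, because the calls of Lef1 and Tcf7l2 were lost and Znrf3 was called higher.

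Tcf7 changed most clearly of the TCF/LEF genes with SB431542. TCF7, also called TCF1, is a factor that is itself a Wnt target, and its gene lies on the minus strand of mm9 chromosome 11, from 52065873 to 52096681. It was at 3.721, 3.675 and 3.572 RPKM in the DMSO libraries and at 6.536, 6.362 and 6.638 RPKM in the SB431542 libraries. The groups lay far apart relative to their spread, a rise of 1.78-fold. The log2 fold change, here and throughout on the scale of RPKM + 0.5, was 0.75 (SE 0.06, limma adjusted p = 0.000402).

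Tcf7l1 moved the other way. This gene lies on the minus strand of chromosome 6, from 72576372 to 72739248, and shares 179 exonic bases with Gm15401 on the opposite strand. DMSO libraries had 22.891, 15.381 and 17.115 RPKM and SB431542 libraries had 11.162, 10.720 and 11.742 RPKM. The SB431542 libraries were close to each other and all below the lowest DMSO library, while the first DMSO library was far above the others. Its log2 fold change was −0.68 (SE 0.13, limma adjusted p = 0.0144), and −0.52 without that library (adjusted p = 0.000491). The call was lost when any 1 SB431542 library was left out, with adjusted p between 0.0557 and 0.0644.

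Lef1 encodes a factor that is itself a Wnt target in many tissues (chromosome 3, 130813389 to 130927274, plus strand). It was at 3.084, 1.733 and 2.318 RPKM in DMSO and at 1.566, 1.345 and 0.985 RPKM with SB431542. The lowest DMSO library was only a little above the highest SB431542 library. The log2 fold change was −0.66 (SE 0.19, limma adjusted p = 0.0480), close to the threshold, and −0.49 without the first DMSO library (adjusted p = 0.0399). Leaving out DMSO library 3 or any 1 SB431542 library ended the call, with adjusted p from 0.0771 to 0.162.

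Tcf7l2, also called TCF4, is the main factor of the intestinal epithelium (chromosome 19, 55816300 to 56008144, plus strand). Its DMSO libraries were at 7.433, 4.956 and 5.290 RPKM and its SB431542 libraries at 4.128, 3.759 and 4.011 RPKM. Here too the first DMSO library was the highest, and all SB431542 libraries were below all DMSO libraries. On the log2 scale the change was −0.50 (SE 0.14, limma adjusted p = 0.0425), and −0.33 without the first DMSO library (adjusted p = 0.00760). As for Lef1, the call was lost without DMSO library 3 or any 1 SB431542 library (adjusted p from 0.0527 to 0.139). Without the first DMSO library the other called genes kept their calls, at log2 fold changes of 0.77 for Tcf7, 0.30 for Axin2, −0.73 for Lgr4 and 0.29 for Sfrp1.

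The feedback genes responded weakly to SB431542. Axin2 encodes a scaffold of the destruction complex and is a widely used readout of Wnt signaling (chromosome 11, 108781663 to 108812097, plus strand; 209 exonic bases are shared with Gm11670 on the opposite strand). It was at 1.417, 1.456 and 1.749 RPKM in DMSO and at 1.992, 2.091 and 2.187 RPKM with SB431542. The groups did not overlap, and Axin2 was 1.36-fold higher (log2 fold change 0.35, SE 0.09, limma adjusted p = 0.0398). The call was lost without the second DMSO library or any 1 SB431542 library, with adjusted p from 0.0954 to 0.141.

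Rnf43 and Znrf3 encode related membrane E3 ubiquitin ligases that remove Frizzled receptors from the cell surface, and neither passed the test with SB431542. Rnf43 (chromosome 11, 87476224 to 87549041, plus strand) was at 1.965, 1.945 and 2.012 RPKM in DMSO and at 1.845, 1.605 and 1.525 RPKM with SB431542. The log2 fold change was −0.20 (95% interval −0.40 to 0.0049, limma adjusted p = 0.147). Znrf3 (chromosome 11, 5176327 to 5344850, minus strand) was at 4.287, 4.519 and 4.745 RPKM in DMSO and at 5.219, 5.274 and 5.534 RPKM with SB431542. The SB431542 libraries were all higher for Znrf3 and all lower for Rnf43, and the Znrf3 difference missed the threshold narrowly (log2 fold change 0.22, 95% interval 0.07 to 0.37, limma adjusted p = 0.0541). Without the first DMSO library Znrf3 was just inside it (adjusted p = 0.0499).

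Lgr4 (chromosome 2, 109757804 to 109854414, plus strand) fell with SB431542. Its DMSO libraries had 54.564, 63.121 and 63.335 RPKM and its SB431542 libraries had 40.806, 39.253 and 33.957 RPKM. The lowest DMSO library was well above the highest SB431542 library. The log2 fold change was −0.66 (SE 0.09, limma adjusted p = 0.00355), and Lgr4 and Tcf7 were the only genes of the 9 whose calls held under every alternative tried. In contrast, Sfrp1 (chromosome 8, 24521974 to 24560104, plus strand), whose product binds Wnt proteins outside the cell, was slightly higher, at 18.614, 17.100 and 16.933 RPKM in DMSO and 21.800, 21.243 and 19.838 RPKM with SB431542. All SB431542 libraries exceeded all DMSO libraries (log2 fold change 0.25, SE 0.06, limma adjusted p = 0.0314). Without DMSO library 2 or 3 or any 1 SB431542 library the adjusted p of Sfrp1 was between 0.0656 and 0.124.

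The AP-1 inhibitor T-5224 lowered Sfrp1, Lgr4, Tcf7l1, Lef1 and Tcf7l2 by 3.64-fold to 14.9-fold, whereas Tcf7 was higher. Of the 8 genes tested, 6 fell and 1 rose with an adjusted p below 0.05 (limma), and 5 of those 6 were down more than 2-fold. T-5224 moved most genes of these cells: over all 10809 genes tested, 39.4% were lower and 40.3% were higher, 10.6% were down more than 2-fold and 10.4% were up more than 2-fold. The groups did not overlap in 7 of the 8 genes, compared with 89.7% of all genes tested. The median log2 fold change was −1.59 over the 8 genes and 0.00 over all genes tested, where the middle 50% of genes lay between −0.50 and 0.50. In either direction 87.5% of the 8 genes and 79.7% of all genes were called, while the sizes of 5 of the falls exceeded those of at least 91.5% of all genes tested. Because the genes were chosen with earlier results of these data known, these contrasts with all genes are no test of the group.

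Sfrp1 had the largest fold change of the 10 genes. It was at 24.154 and 25.682 RPKM in DMSO and at 1.710 and 1.639 RPKM with T-5224. The T-5224 libraries kept 6.72% of the DMSO level and differed little from each other. On the log2 scale this was −3.55 (SE 0.08, limma adjusted p = 1.33e-11).

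Lgr4, the most abundant of the 10 transcripts, was at 111.893 and 113.946 RPKM in DMSO and at 17.781 and 16.815 RPKM with T-5224. The groups lay far apart relative to the difference between libraries of a group. This was a fall of 6.53-fold (log2 fold change −2.67, SE 0.06, limma adjusted p = 8.23e-12).

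The same 3 TCF/LEF genes that were lower with SB431542 were lower with T-5224, by more. The median size of the log2 fold change over all genes tested was also larger, at 0.501 against 0.141. The sizes for Lef1, Tcf7l1 and Tcf7l2 exceeded those of 91.8%, 97.6% and 91.5% of all genes with T-5224. With SB431542 these shares were 97.1%, 97.2% and 94.1%. Tcf7l1 was at 23.758 and 25.181 RPKM in DMSO and at 3.981 and 3.910 RPKM with T-5224. Its T-5224 libraries were nearly equal, 6.202-fold below DMSO (log2 fold change −2.49, SE 0.07, limma adjusted p = 8.68e-11). Lef1 was at 3.290 and 3.358 RPKM in DMSO and at 0.822 and 0.705 RPKM with T-5224, so that no T-5224 library reached 1 RPKM (log2 fold change −1.60, SE 0.12, limma adjusted p = 1.80e-07). Tcf7l2 was at 5.528 and 5.261 RPKM in DMSO and at 1.660 and 1.307 RPKM with T-5224. It was 3.64-fold lower, with libraries that agreed less well after treatment (log2 fold change −1.58, SE 0.11, limma adjusted p = 1.51e-07).

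Tcf7 was again the exception among the factors. Its DMSO libraries were at 1.051 and 0.959 RPKM and its T-5224 libraries at 1.475 and 1.705 RPKM. Both T-5224 libraries were higher, 1.58-fold on average, a log2 fold change of 0.47 (SE 0.13, limma adjusted p = 0.00540). This size lay inside the middle 50% of all genes tested, and without the second T-5224 library the adjusted p was 0.0770.

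Of the feedback genes, Rnf43 was lower and Znrf3 showed no detectable change. Rnf43 was at 3.018 and 3.474 RPKM in DMSO and at 2.452 and 2.290 RPKM with T-5224. It was 1.37-fold lower (log2 fold change −0.38, SE 0.11, limma adjusted p = 0.00669), and without the second T-5224 library the adjusted p was 0.0581. Znrf3, its close relative, was at 3.503 and 3.482 RPKM in DMSO and at 3.251 and 3.498 RPKM with T-5224. These groups overlapped, and the 95% interval of the log2 fold change ran from −0.26 to 0.17 (estimate −0.04, limma adjusted p = 0.684). Axin2, below the expression minimum in this table, was at 1.320 and 1.385 RPKM in DMSO and at 0.692 and 0.520 RPKM with T-5224. It retained 44.8% of its DMSO level, and in a fit without the minimum its log2 fold change was −0.75 (SE 0.12, limma adjusted p = 0.00481).

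**Figure D2:**
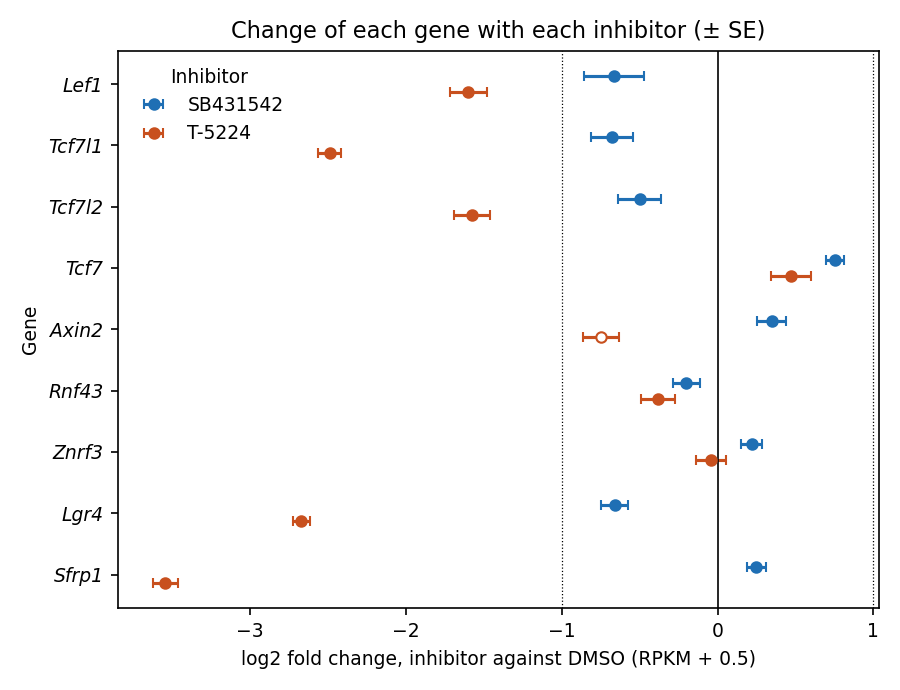
Log2 fold change of each gene against the DMSO libraries of its own experiment (horizontal axis, RPKM + 0.5), with bars for ± 1 SE; dotted lines mark 2-fold, and the open point is Axin2 with T-5224, from the fit without an expression minimum. With T-5224, Sfrp1 (−3.55), Lgr4 (−2.67), Tcf7l1 (−2.49), Lef1 (−1.60) and Tcf7l2 (−1.58) lie past the 2-fold line, and no gene passes it with SB431542.

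Placed side by side, the inhibitors gave changes of the same sign in Lef1, Tcf7l1, Tcf7l2 and Lgr4, which were lower with each, and in Tcf7, which was higher with each. Sfrp1 passed the test in opposite directions, at a log2 fold change of 0.25 with SB431542 and −3.55 with T-5224. Axin2 also differed in sign, at 0.35 with SB431542 and −0.75 with T-5224, the latter from the fit without the minimum. The doses, tables and DMSO libraries differ between the experiments, and these differences between inhibitors were not tested.

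Because 3 factors fell and Tcf7 rose, the relative levels of the TCF/LEF transcripts shifted. The summed level of the 4 genes was 37.1, 25.7 and 28.3 RPKM in DMSO and 23.4, 22.2 and 23.4 RPKM with SB431542. With T-5224 it went from 33.6 and 34.8 RPKM to 7.94 and 7.63 RPKM. In neither experiment did the groups overlap, but the smallest p that an exact permutation test (two-sided) allows with these numbers of libraries is 0.1 for SB431542 and 0.333 for T-5224, and each sum, and each share and ratio of Tcf7 given next, was at that limit.

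Tcf7 made up 12.3 ± 2.14% of the summed TCF/LEF level in DMSO and 28.34 ± 0.374% with SB431542 (SD, n = 3 each). In the T-5224 experiment its share was 2.94 ± 0.259% in DMSO and 20.46 ± 2.67% with the inhibitor (SD, n = 2 each). Tcf7l1 was the main TCF/LEF transcript in every group, and its mean share was 60.6% in DMSO and 48.8% with SB431542, and 71.5% in DMSO and 50.7% with T-5224. The ratio of Tcf7l1 to Tcf7 transcripts per length was 6.15, 4.19 and 4.79 in DMSO and 1.71, 1.69 and 1.77 with SB431542. It was 22.6 and 26.3 in DMSO and 2.70 and 2.29 with T-5224, so the repressor-type factor was still the more abundant transcript in every library. The mean shares of Lef1 and Tcf7l2 moved less, from 7.74% to 5.66% and from 19.3% to 17.3% with SB431542, and from 9.72% to 9.80% and from 15.8% to 19.0% with T-5224.

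**Figure D3:**
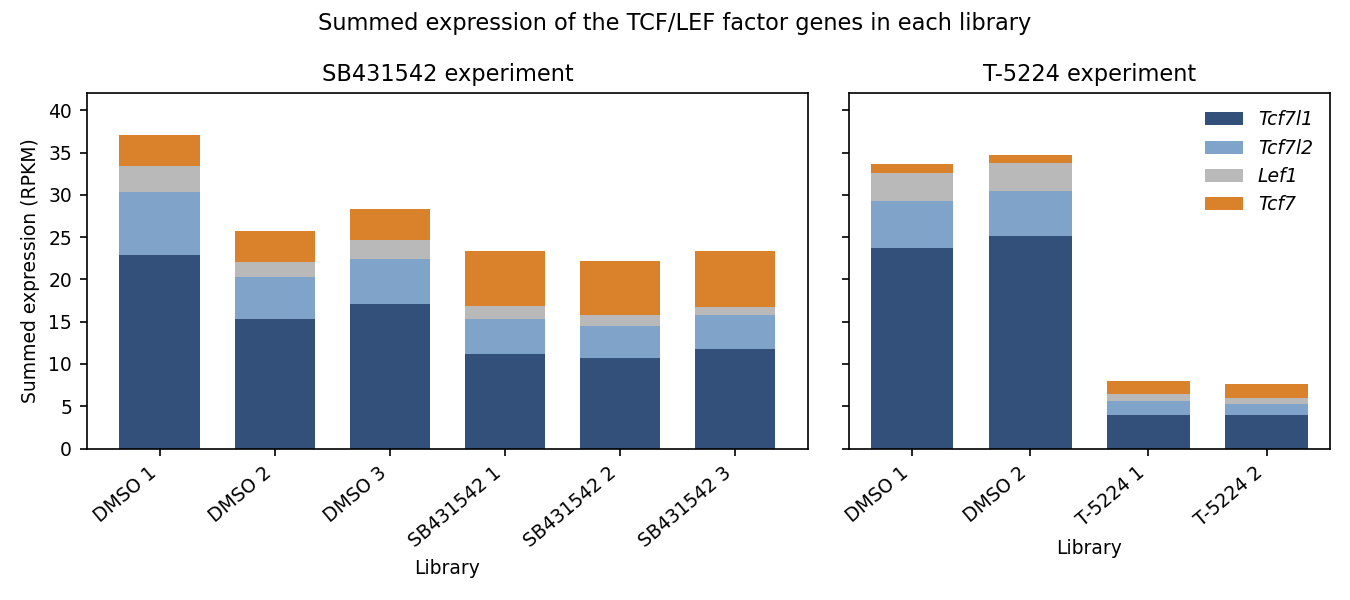
Summed RPKM of Tcf7l1, Tcf7l2, Lef1 and Tcf7 in each library (stacked bars, 1 bar per library). The sum is 22.2 to 23.4 RPKM with SB431542 and 7.63 to 7.94 RPKM with T-5224, below every DMSO library, and the Tcf7 segment is larger with either inhibitor.

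Krt5 and Krt14, the keratins of basal keratinocytes, were lower with each inhibitor, while the other markers of the line did not move together. Krt5 had log2 fold changes of −0.30 with SB431542 and −3.35 with T-5224, and Krt14 had −0.81 and −2.82. Trp63, Epcam, Itga6 and Gli1 had 0.10 (limma adjusted p = 0.533), 0.23, 0.04 (limma adjusted p = 0.645) and −0.60 with SB431542. Their values with T-5224 were −0.59, 0.81, −1.08 and −1.66, so that Epcam was higher and Gli1 lower with each inhibitor. The summed level of these 6 markers, nearly all of it Krt5 and Krt14, was 9179 to 9343 RPKM in DMSO and 6417 to 6876 RPKM with SB431542, and 11625 to 12274 RPKM in DMSO and 1586 to 1643 RPKM with T-5224. In bulk RNA, fewer cells of a kind and less RNA per cell cannot be told apart, and the part of these markers in the Wnt results was not tested.

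The lists for other cells also moved, at low sums. The differentiated keratinocyte list, of which only Krt10 exceeded 1 RPKM in DMSO, summed to 2.69 to 2.84 RPKM in DMSO and 2.96 to 3.88 RPKM with SB431542, and to 4.02 to 4.08 RPKM in DMSO and 1.82 to 2.15 RPKM with T-5224. The fibroblast sum, most of it Dcn, was 2.45 to 2.62 RPKM in DMSO and 3.69 to 4.14 RPKM with SB431542, and 2.54 to 2.58 RPKM in DMSO and 2.60 to 2.82 RPKM with T-5224, with Lum at 0 in every library. The fibroblast ranges did not overlap in either experiment, though with T-5224 only the step from 2.58 to 2.60 RPKM parted them. Groups also did not overlap in 45.1% of all genes tested with SB431542 and in 89.7% with T-5224. The immune sum, nearly all Cd68, was 7.02 to 10.5 RPKM in DMSO and 7.71 to 8.33 RPKM with SB431542, and 16.7 to 18.6 RPKM in DMSO and 32.7 to 33.2 RPKM with T-5224. The endothelial sum, nearly all Pecam1, was 5.24 to 6.57 RPKM in DMSO and 2.60 to 2.83 RPKM with SB431542, and 10.7 to 11.8 RPKM in DMSO and 4.11 to 4.67 RPKM with T-5224. The melanocyte sum was at most 0.426 RPKM in any library. Their part in the Wnt results was not tested either.

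The promoters of the factors that fell together are shown for their TCF/LEF core letters, since TCF/LEF genes can be Wnt targets themselves. RefSeq windows of 250 bases before each annotated start (GRCm38.p6, a different build from the mm9 positions above) were available for 8 of the 10 genes. Sfrp1 and Znrf3 had none. On either strand, none of these windows held the TCF/LEF sequence CTTTGAT, found in 3.21% of the 32851 windows of all genes. The AP-1 sequence TGANTCA (6.75% of all windows) and the SMAD sequence GTCTAGAC (0.167% of all windows) were in none of them either. Shorter or related letters were searched after that result was seen. The TCF/LEF core CTTTG, which is part of the longer TCF/LEF sequence and occurs in 48.6% of all windows, was in all windows of Lef1 and Tcf7l2 and in the window of Tcf7l1. No window of Tcf7, which rose, held it, nor did any window of Lgr4, which fell with each inhibitor, or of Rnf43, Axin2 and Nkd1. The Tcf7 windows and the Tcf7l1 window hold sequence of annotated coding transcripts. For these genes the presence or absence of the core is therefore not that of a promoter alone. Any relation of the core to the direction of change was not tested. The shorter SMAD letters CAGAC (42.2% of all windows) was in windows of Lef1, Axin2 and Rnf43. The CRE sequence TGACGTCA (1.55% of all windows) was in none of the 8 genes. The capitals below mark CTTTG or its complement CAAAG, 161 bases before the start in the most upstream Lef1 window, chr3:131110047-131110296 on the plus strand, and 111 bases before it in that of Tcf7l2, chr19:55741560-55741809 on the plus strand.
Lef1: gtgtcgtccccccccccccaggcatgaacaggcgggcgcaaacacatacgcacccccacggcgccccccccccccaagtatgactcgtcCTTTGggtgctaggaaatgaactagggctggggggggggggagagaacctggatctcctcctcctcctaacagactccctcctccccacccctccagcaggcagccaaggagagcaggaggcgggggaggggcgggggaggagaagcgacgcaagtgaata
Tcf7l2: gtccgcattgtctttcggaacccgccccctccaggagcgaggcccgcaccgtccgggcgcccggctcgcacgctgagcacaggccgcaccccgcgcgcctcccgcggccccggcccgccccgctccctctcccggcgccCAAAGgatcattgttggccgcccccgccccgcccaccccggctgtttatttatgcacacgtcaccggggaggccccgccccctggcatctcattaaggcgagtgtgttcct
The Tcf7 and Tcf7l1 windows share transcribed sequence with annotated coding transcripts and are not shown. A match is a description of letters only, and with a background of 48.6% it marks no site.

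A wider set of 115 Wnt pathway genes, listed by role, gives the context of these 10. With SB431542, 67 of them were tested, of which 12 fell and 5 rose (limma, adjusted p below 0.05), with a median log2 fold change of −0.06. On the scale of RPKM + 0.5, 0 changed more than 2-fold with either an adjusted or an unadjusted p below 0.05. Ccnd1 came closest, at a log2 fold change of 0.99 on that scale and a plain RPKM ratio of 2.0006. With T-5224, 64 were tested, of which 35 were lower and 19 higher, 18 were down more than 2-fold and 5 were up more than 2-fold, with a median of −0.25. In either direction 25.4% of the tested genes were called with SB431542 and 84.4% with T-5224, against 20.2% and 79.7% of all genes tested. With T-5224, 54.7% were lower and 29.7% higher, against 39.4% and 40.3% of all genes tested. Without the first DMSO library the SB431542 counts were 22 lower and 10 higher, and they were 5 and 3 without DMSO library 2 and 3 and 2 without any 1 SB431542 library. The share of all genes called in these fits was not taken, so these shifts are no result about the Wnt genes. Of the 15 genes named below as called with SB431542, not counting Fzd6, the calls of Wnt4, Fzd5 and Ccnd1 held under all alternatives tried. The calls of the other 12 were lost under at least 1.

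With SB431542, 3 of 7 Wnt ligand genes tested were lower and 0 were higher (limma), and the same count of 3 passed at an unadjusted p under 0.05. Of all 10842 genes tested, 3912 passed at that unadjusted p in either direction, and 20.2% were called by the adjusted p. Wnt4 went from 59.2 ± 3.27 to 40.1 ± 1.15 RPKM (SD, n = 3 each; log2 fold change −0.55, limma adjusted p = 0.00131). Wnt11, which acts mainly outside the beta-catenin branch, and Wnt10a, a ligand of hair and tooth development, had log2 fold changes of −0.55 and −0.38. With T-5224, 4 of 6 ligand genes tested were lower and 1 was higher, 83.3% called in either direction against 79.7% of all genes tested. Wnt4 went from 82.5 ± 5.66 to 13.01 ± 0.337 RPKM (SD, n = 2 each), a log2 fold change of −2.62, and Wnt10a and Wnt11 had log2 fold changes of −1.39 and −0.56. Of the ligand secretion genes, Porcn, the acyltransferase that lipidates Wnt proteins, was lower with SB431542 (−0.53) and higher with T-5224 (0.57), and Wls, the carrier of lipidated Wnts, was higher with T-5224 (0.39) and not called with SB431542.

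Of the receptor genes tested, which include no R-spondin gene because all R-spondin genes were below the minimum or not listed, most did not pass the test with SB431542. With this inhibitor 8 of 12 were not called, 1 was lower (Fzd6, −0.20, limma adjusted p = 0.0487) and 3 were higher. Those 3 were the Frizzled genes Fzd5 (log2 fold change 0.83, from 2.68 ± 0.135 to 5.13 ± 0.134 RPKM) and Fzd4 (0.52) and the co-receptor gene Lrp5 (0.24). Fzd4 was at 0.804 RPKM in DMSO and met the expression minimum only through its SB431542 libraries, at 1.36 RPKM. The Fzd6 call was lost in the fit with no variance trend and in that with the replicate number as a block. With T-5224, 6 of 9 tested were lower and 2 were higher, 88.9% called in either direction against 79.7% of all genes tested. The largest changes were falls in Fzd2 (−1.99), Fzd8 (−1.64) and Fzd1 (−1.41). Fzd5 was higher with T-5224 too, from 2.05 ± 0.290 to 6.15 ± 0.283 RPKM (SD, n = 2 each; log2 fold change 1.39, limma adjusted p = 2.64e-07). Secreted and membrane antagonists did not pass the test with SB431542 in any of the 4 genes tested. Nor did any at an unadjusted p under 0.05 (limma, 0 of 4), which 3912 of all 10842 genes tested passed. With T-5224, 3 of 4 were lower and 1 was higher, where 79.7% of all genes tested were called in either direction. Sostdc1, an antagonist of Wnt and BMP, went from 36.9 ± 1.10 to 0.320 ± 0.0460 RPKM (SD, n = 2 each; log2 fold change −5.51, limma adjusted p = 1.06e-12). Apcdd1, a membrane inhibitor and Wnt target, had a log2 fold change of −2.59, and Igfbp4 rose from 0.298 to 8.30 RPKM (log2 fold change 3.48). Igfbp4 met the expression minimum only through its T-5224 libraries and Sostdc1 only through its DMSO libraries. The direction of their changes is therefore not independent of that filter.

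Within the transduction list, 1 of 20 genes tested was lower and 1 higher with SB431542, Dact2 (−0.51) and Axin1 (0.20). With T-5224, 10 of 21 were lower and 7 higher, 81% called in either direction against 79.7% of all genes tested. Ctnnb1, which encodes beta-catenin, went from 195.5 ± 19.4 to 175.1 ± 7.44 RPKM with SB431542 (SD, n = 3 each), groups that overlapped (log2 fold change −0.15, limma adjusted p = 0.210). Without the first DMSO library it was called lower (−0.24, limma adjusted p = 0.00221). With T-5224 it went from 307.2 ± 1.59 to 123.6 ± 4.11 RPKM (SD, n = 2 each), a log2 fold change of −1.31 (limma adjusted p = 8.19e-10). Dact2 was also lower with T-5224 (−1.63), and Cxxc5, a Dishevelled-binding protein gene, was higher (2.15). Cxxc5 was at 0.615 RPKM in DMSO and met the expression minimum only through its T-5224 libraries, at 4.47 RPKM.

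The nuclear cofactors Bcl9 and Bcl9l, which link beta-catenin to its coactivators, were lower with each inhibitor, at log2 fold changes of −0.27 and −0.32 with SB431542 and −1.39 and −1.65 with T-5224. Among 12 cofactor genes tested in each experiment, 3 were lower and 0 higher with SB431542 (Tle3, a corepressor gene, was the other, at −0.30), and 7 were lower and 3 higher with T-5224, including Tle1 (1.07). Counting at an unadjusted p under 0.05 (limma), 6 of the 12 cofactor genes passed with SB431542 in either direction, as did 3912 of all 10842 genes tested. By the adjusted p, 25% were called with SB431542 and 83.3% with T-5224, against 20.2% and 79.7% of all genes tested.

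Of 10 other known beta-catenin target genes tested in each experiment, 3 were lower and 1 higher with SB431542, and 5 were lower and 3 higher with T-5224. In either direction 40% were called with SB431542 and 80% with T-5224, against 20.2% and 79.7% of all genes tested. Ccnd1, the gene of cyclin D1, went from 44.8 ± 2.48 to 89.7 ± 7.22 RPKM with SB431542 (SD, n = 3 each; log2 fold change 0.99, limma adjusted p = 0.000311). With T-5224 it was lower, going from 20.2 ± 0.508 to 11.9 ± 0.0587 RPKM (SD, n = 2 each; log2 fold change −0.75, limma adjusted p = 7.25e-07). Sox9, a hair follicle stem cell factor, was lower with SB431542 (−0.56) and with T-5224 (−1.77, from 125.0 ± 3.52 to 36.3 ± 0.549 RPKM). Bambi, a pseudoreceptor of the TGFß family, was lower with each (−0.43 and −2.68), and Ephb3 was lower with T-5224 (−1.27). Myc was higher with T-5224, from 34.0 ± 3.22 to 77.8 ± 0.787 RPKM (log2 fold change 1.18), and was not called with SB431542 (−0.06, limma adjusted p = 0.699). Fzd6 and Myc were named after their values were seen. Since the lists were chosen with earlier results of these data known, their counts are descriptions beside the background given above.

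**Figure D4:**
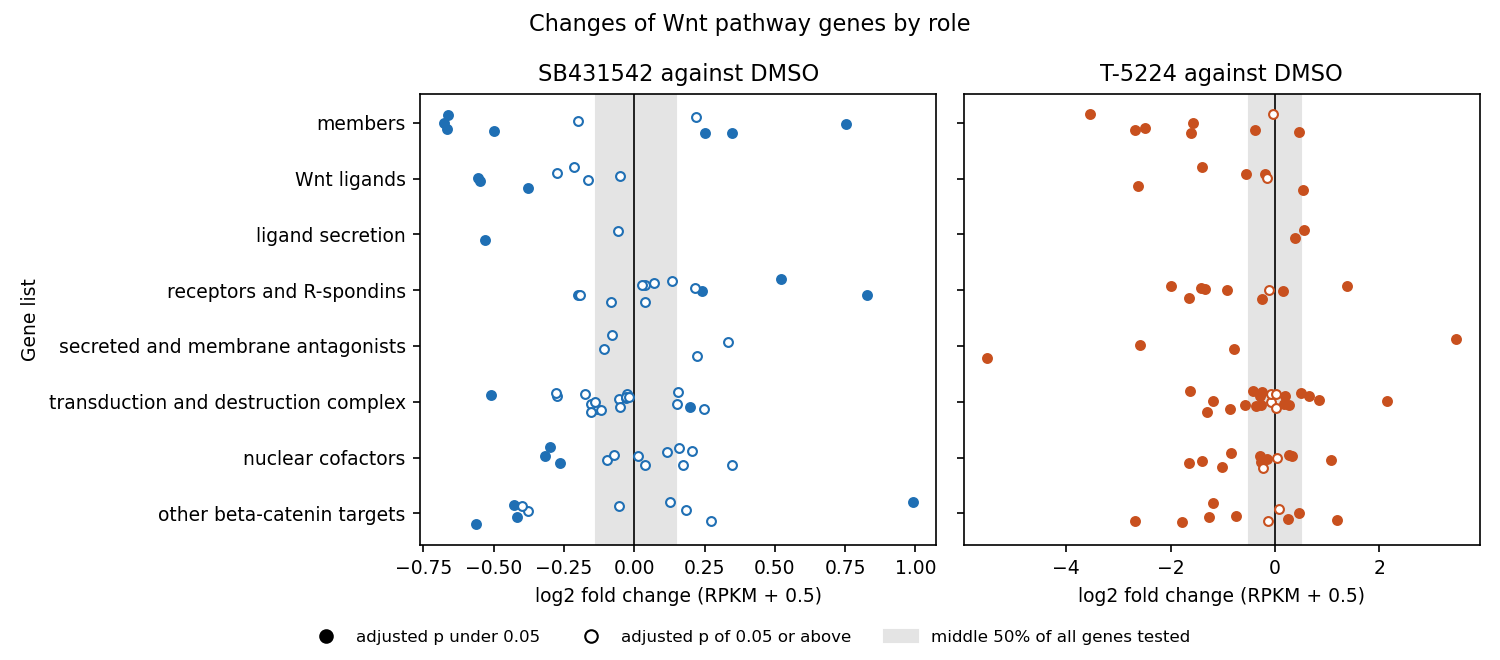
Log2 fold change (horizontal axis, RPKM + 0.5) of each tested gene in 8 role lists with SB431542 (left) and T-5224 (right), on axes of different width; filled points have a limma adjusted p under 0.05, and the grey band holds the middle 50% of all genes tested. The members with T-5224 lie mostly left of the band, down to −3.55, while the transduction genes centre near 0.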

How the data were processed

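RNA was measured in 10 libraries of ASZ001 cells. Per the labels and the study's methods, TruSeq Stranded mRNA libraries were sequenced on a HiSeq2000 instrument, and the deposited RPKM per gene and library come from TopHat alignment (mm9) and HOMER counting by the authors. The strand setting of the counting is not given in the sources used here. Genes of a table without reads may be missing from it.

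Rows whose symbol had become a date were left out (22 and 23). Per table, limma 3.58.1 (R 4.3.3) was fitted to treated and DMSO libraries, using log2(RPKM + 0.5), a trended prior variance and two-sided tests. It took in every gene averaging 1 RPKM or more (10842 and 10809 genes), over which p-values were adjusted by Benjamini-Hochberg. A gene below 1 RPKM in 1 group could enter through the other group. With T-5224, Igfbp4, Cxxc5 and Wnt9a did so through the treated libraries, and Lef1, Sostdc1 and Bambi through DMSO. Fzd4 did so with SB431542. For such genes a called direction is not independent of the filter. RPKM are not counts, so no count test was run. On simulated data, 199 of 200 changed genes were recovered for each table, with 15 and 2 false calls. These 200 lay among 10842 and 10809 genes, so a table in which most genes move, as with T-5224, was not tested. How well changes as small as those of the members with SB431542 are recovered was not tested either. Intervals are 95%.

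The members and the gene lists were chosen with earlier results of these data known. The genes named are the members, Ctnnb1 and up to 3 genes of each list with the largest change among those called. Positions are from GENCODE vM1 (NCBIM37, the assembly of mm9), and promoters from RefSeq. DMSO columns beside T-5224 carry other numbers than the labels, so they were matched to their group only. All columns of values were used.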

Additional observations from a re-analysis of the deposited data

How the results depend on the processing

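With SB431542, the count of members lower (4) was 2 without the filter on low values, with a mean RPKM of at least 5, with median centring and with quantile normalization. It lay between 1 and 4 when 1 library was left out, and the count of members higher (3) between 1 and 4. The replicate number as a block gave 1 member higher and 2 other Wnt genes higher (5 without it). The correlations of same-numbered libraries were −0.148, 0.151 and −0.0949, and of the DMSO libraries only number 2 correlated best with its own number, so the numbers were not taken to pair the libraries. Of the other Wnt genes, 3 were higher with a mean RPKM of at least 5 and 11 at an unadjusted p. At an unadjusted p, 29 of the 67 passed in either direction, as did 3912 of all 10842 genes tested. Leaving out 1 library gave 3 to 22 lower, 2 to 10 higher and 0 to 1 up more than 2-fold. Except for the unadjusted p, the share of all genes called was not taken for the alternatives, here or with T-5224. These counts therefore describe the fits and are no result about the Wnt genes.

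With T-5224, a mean RPKM of at least 5, under which fewer genes are tested, gave 3 members lower, 3 down more than 2-fold and 0 higher, and 2 other Wnt genes up more than 2-fold. Without 1 library, 0 to 1 members were higher. The log2 fold change of Znrf3 (−0.04) reversed to 0.0425 with quantile normalization and ranged from −0.0900 to 0.0020 without 1 T-5224 library. Leaving out 1 library there leaves an arm with 1 library, assumed to vary like the others. Such a fit does not measure the spread of that arm, so a call that it keeps is no support. The T-5224 fits counted next include these. Of 91 fits of the 8 members under alternatives, 87 kept direction and call, and of 130 fits of the 9 members with SB431542, 96 did, 29 lost and 5 gained a call. Where no construction shows it, the cause was not tested. The alternatives were pseudocounts of 0.1 and 1, the filters, centring, quantile normalization, no trend, an unadjusted p, the block and each library left out.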

Other observations

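Pathway genes below the expression minimum showed further low values with T-5224. Lgr6, a relative of Lgr4, went from 1.66 ± 0.142 to 0.0895 ± 0.00919 RPKM (SD, n = 2 each), and Notum, which encodes an enzyme that inactivates Wnt proteins, from 1.31 ± 0.134 to 0.177 ± 0.0750 RPKM. Wnt3a went from 0.435 ± 0.00849 to 0.0255 ± 0.0163 RPKM and Ror2, a co-receptor gene, from 0.572 ± 0.00141 to 0.0265 ± 0.0375 RPKM. In the other direction, Wnt7a went from 0.378 ± 0.107 to 1.08 ± 0.283 RPKM and Fzd4 from 0.314 ± 0.00849 to 0.851 ± 0.0948 RPKM.

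With SB431542, Lgr6 went from 0.254 ± 0.0546 to 0.0317 ± 0.0299 RPKM (SD, n = 3 each) and Wnt10b from 0.742 ± 0.0558 to 0.362 ± 0.0932 RPKM, while Wnt3a went from 0.544 ± 0.0779 to 0.933 ± 0.197 RPKM. These genes were named after their values were seen and were not tested. The listed pathway genes below the minimum numbered 37 in each experiment.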
